A study of Mus musculus with 6 samples.

Results

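The 9 genes described here encode kinases of the MAP kinase cascades and were chosen by symbol, with earlier results of these data known. They are *Map4k3*, *Map4k4*, *Map3k5*, *Map2k1*, *Mapk3*, *Mapk8*, *Mapk9*, *Mapk14* and *Mapkapk2*, 9 of the 52089 symbols of the deposited table, with 81 of its accessions. *Mapk9* and *Map4k4* were included because the splice analysis of the study, made on these same libraries, lists them, so that the use of their accessions is not independent of that choice. The cells were primary brite adipocytes, that is, thermogenic fat cells, grown from stromal-vascular cells of the inguinal fat depot of 129SvEv mice, with 2 days of induction and 1 day of differentiation under rosiglitazone, a PPARγ agonist. One group of 3 libraries came from cells reverse transfected with an LNA Gapmer antisense oligonucleotide (ASO1, 50 nM) against transcript 1 of the long noncoding RNA *Ctcflos* (*Ctcflos* KD), and the other group of 3 from cells that received a nontargeting oligonucleotide at the same dose (control). RNA was taken 24 h after transfection and sequenced as stranded total RNA. Neither the labels nor the methods say that the libraries of a group came from separate animals or cultures, so p-values measure the spread between these samples.

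A MAP kinase cascade is a relay of protein kinases that phosphorylate each other in turn. MAP4 kinases act furthest upstream and pass stress and cytokine signals to MAP3 kinases, which activate MAP2 kinases, and these activate the MAP kinases proper, ERK, JNK and p38, by phosphorylation of a threonine and a tyrosine. In brown and brite adipocytes p38 is known for linking β-adrenergic signals to *Ucp1* transcription, whereas JNK and MAP4K4 are known for dampening insulin signalling in adipocytes.

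Levels are given as RPKM, reads per kilobase of transcript relative to the depth of the library, averaged over all accessions of a gene, and fold changes as differences of log2(RPKM + 1), a scale that understates the change of low genes. All 11701 genes that averaged 1 RPKM or more were fitted together with limma-trend, and p-values were adjusted by Benjamini-Hochberg over them. The depth, recovered from the steps of low values, was 60.8 to 75.5 mio mapped reads in *Ctcflos* KD and 62.9 to 79.2 mio in the controls. *Ctcflos* itself, the target of the oligonucleotide, was present at 0.0969, 0.0705 and 0.210 RPKM in *Ctcflos* KD replicates 1 to 3 and at 0.748, 0.751 and 0.840 RPKM in the controls, so that replicate 3 kept the most. Adipocyte identity of the cells was visible in *Fabp4*, the fatty acid carrier of adipocytes, at 2829 to 3574 RPKM in KD and 3682 to 4243 RPKM in control libraries, and 7 of 7 adipocyte markers passed the filter. The summed level of these markers was 4227 to 5629 RPKM in KD and 5899 to 6556 RPKM in controls, that of 6 thermogenic markers 61.9 to 81.6 and 109 to 166 RPKM, and that of 6 macrophage markers 6.70 to 18.6 and 8.42 to 30.3 RPKM. The adipocyte and thermogenic sums were lower in every KD library than in every control, while the macrophage sums, most of which is *Lyz2* in 4 of the 6 libraries, overlapped. Of the thermogenic markers, *Ucp1*, *Elovl3* and *Ppargc1a* were lower without overlap, and *Cidea* and *Cox7a1* overlapped. *Dio2* was higher without overlap (0.293 to 0.589 against 0.128 to 0.256 RPKM), though not called without a filter (limma adjusted p = 0.203). Within the macrophage list *Cd68* was higher in KD without overlap (2.16 to 4.12 against 0.657 to 1.92 RPKM, limma adjusted p = 0.0230), as was *Csf1r* (1.10 to 1.48 against 0.269 to 0.833 RPKM), neither of them called without a filter (adjusted p = 0.0713 and 0.0658, limma), *Lyz2*, *C1qa* and *Adgre1* overlapped, and *Ptprc*, the pan-leukocyte marker, was lower without overlap and at no more than 0.0486 RPKM in any library. The part of these genes in the results was not tested. In such bulk samples fewer cells of a type and less RNA per cell cannot be told apart.

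In the members, 3 of the 8 that passed the filter were lower in *Ctcflos* KD at an adjusted p under 0.05 (limma) and 0 were higher, beside 12.4% of all genes tested that were lower and 11.5% that were higher. The 3 were *Map4k4*, *Map4k3* and *Mapk8*. At an unadjusted p under 0.05 (limma) the counts were also 3 and 0, beside 2212 lower and 2344 higher of all 11701 genes tested. Without control replicate 1 or control replicate 3, 0 members were called. *Map3k5* had a mean under 1 RPKM and was taken from the fit without a filter. Every KD library lay below every control for *Map4k4*, *Map4k3*, *Mapk8* and *Map3k5*, 4 of 9 genes, where 21.9% of the genes tested did so. In 0 members did every KD library lie above every control, beside 22.9% of the genes tested. *Map2k1*, *Mapk3*, *Mapk9*, *Mapk14* and *Mapkapk2* overlapped between the groups.

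**Figure D1:**
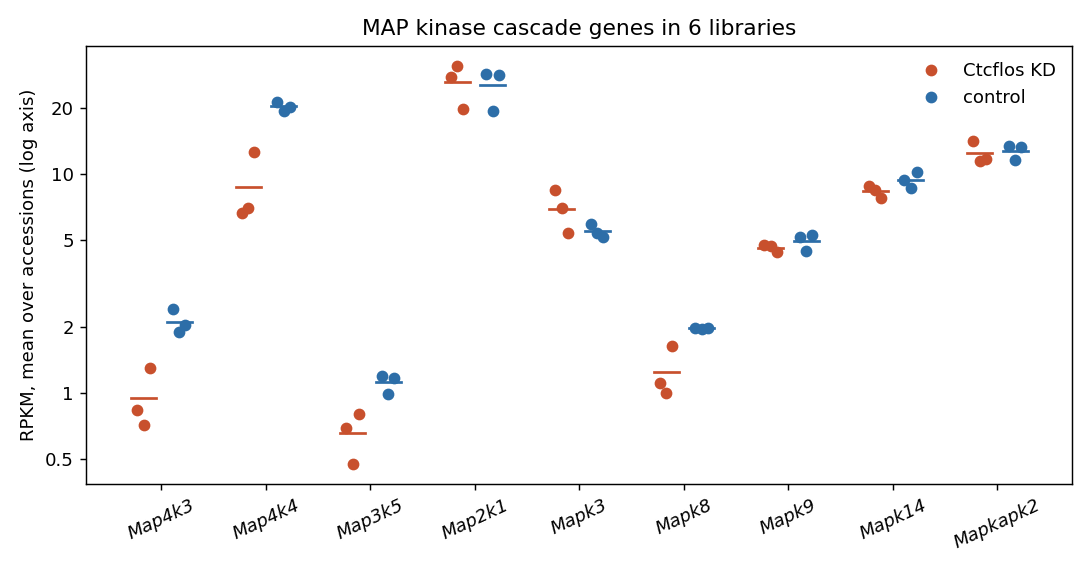
RPKM of the 9 cascade genes (log axis) in 3 *Ctcflos* KD and 3 control libraries, ordered from MAP4 kinases to the downstream kinase. Each point is a library and each bar a group mean. *Map4k3*, *Map4k4*, *Map3k5* and *Mapk8* show separate groups, with 1 KD library, replicate 3, nearest to the controls, and the other 5 genes overlap.

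*Map4k4* is a MAP4 kinase of the germinal centre kinase family and acts towards JNK. It spans chr1:39900913-40026310 of GRCm38 on the plus strand, 125.4 kb, and no other gene is annotated within its span. It was measured at 6.68, 6.99 and 12.6 RPKM in KD replicates 1 to 3 and at 21.4, 19.5 and 20.3 RPKM in the controls. The control libraries were within a narrow band, and the KD libraries fell into a low pair and 1 library, replicate 3, between that pair and the controls. KD libraries held 8.76 ± 3.34 RPKM (SD, n = 3) and controls 20.4 ± 0.925 RPKM (SD, n = 3), which leaves 42.9%. The fit gave a log2 fold change of -1.18 (SE, the standard error, 0.212, limma adjusted p = 0.0104). Without control replicate 1 the adjusted p was 0.0562 and without control replicate 3 it was 0.0540, while the log2 fold change stayed between -1.45 and -1.04 over all 6 libraries left out in turn. For ENSMUST00000163854, the *Map4k4* accession with a Gencode length, the RPKM values correspond to 2556, 2747 and 3785 reads in KD and 8022, 7922 and 6436 reads in controls. Counting error is small beside the difference between the groups and the spread of the KD libraries. For this accession the spread of the controls, 17.6 ± 0.265 RPKM (SD, n = 3), is narrow enough to be of the order of counting error. The gene value, a mean over accessions, spread more widely in the controls.

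The 4 curated RefSeq mRNAs of *Map4k4* differ in the use of a pair of cassette exons in the coding sequence, between the kinase domain and the C-terminal citron homology domain. The exons are shown because the annotated isoforms differ in them, though not in them alone. The first, of 162 bases, lies at chr1:40001430-40001591 and the second, of 231 bases, at chr1:40003757-40003987, both on the plus strand of GRCm38.
Map4k4 exon of 162 bases: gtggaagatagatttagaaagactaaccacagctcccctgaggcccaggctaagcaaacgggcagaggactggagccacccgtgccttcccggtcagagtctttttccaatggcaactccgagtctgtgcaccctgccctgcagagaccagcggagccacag
Map4k4 exon of 231 bases: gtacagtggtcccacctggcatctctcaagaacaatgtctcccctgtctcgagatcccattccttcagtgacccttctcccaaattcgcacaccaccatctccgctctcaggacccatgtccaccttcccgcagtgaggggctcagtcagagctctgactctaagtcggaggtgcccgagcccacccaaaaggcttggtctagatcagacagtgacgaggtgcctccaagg
NM_001252200 holds both exons, NM_001252202 the first, NM_008696 the second and NM_001252201 neither. The Gencode transcripts behind NM_001252200 and NM_001252201 have 32 and 31 exons and 3960 and 3759 bases. The mRNAs thus also differ in sequence other than this pair. In *Ctcflos* KD their RPKM was 43.5% of the control mean in each of the 4. The mRNAs share most of their exons and therefore most of their reads, and RPKM values of overlapping accessions cannot separate them.

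Among the 13 *Map4k4* accessions, 11 were lower in every KD library than in every control, with 41.3 to 45.5% of the control mean left. The exceptions were a pair of weak GenBank clones. Overlapping accessions share reads, so that counts of accessions, here and in the genes below, can repeat the value of the gene. These counts were not compared with the share over all accessions of the table. AK017168 was at 1.57, 0.788 and 1.39 RPKM in KD and 0.999, 1.30 and 0.941 RPKM in controls, which overlap. AK139433 was at 0.827, 0.674 and 1.45 RPKM in KD and 1.33, 1.77 and 1.57 RPKM in controls, also with overlap. With the rest of the gene lower, their shares of the summed *Map4k4* RPKM rose without overlap, from 0.410 to 1.17% for AK017168 and from 0.590 to 0.860% for AK139433. limma diffSplice compares each accession with the others of the gene. It treats accessions as separate observations although many share reads, so that its p-values can be too small. The test gave *Map4k4* a gene-level adjusted p of 0.0463 and AK017168 an adjusted p of 0.0183, where 0.768% of 10027 genes were called for usage. This call did not hold widely: the gene-level adjusted p from limma was 0.116 after scaling by the median of ratios, 1 with the F test or with accessions of at least 5% of the gene, and 0.576 when each accession was set against the gene mean of its own library. Without each library in turn it ranged from 1.2e-09, without KD replicate 3, to 1, without KD replicate 1 or control replicate 3, and KD replicate 3 was the only library without which it passed 0.05. The pair with the highest mean share, AK004047 and AK020498, moved from 12.5 to 11.9% and from 12.4 to 11.8%, with overlap between the groups.

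**Figure D2:**
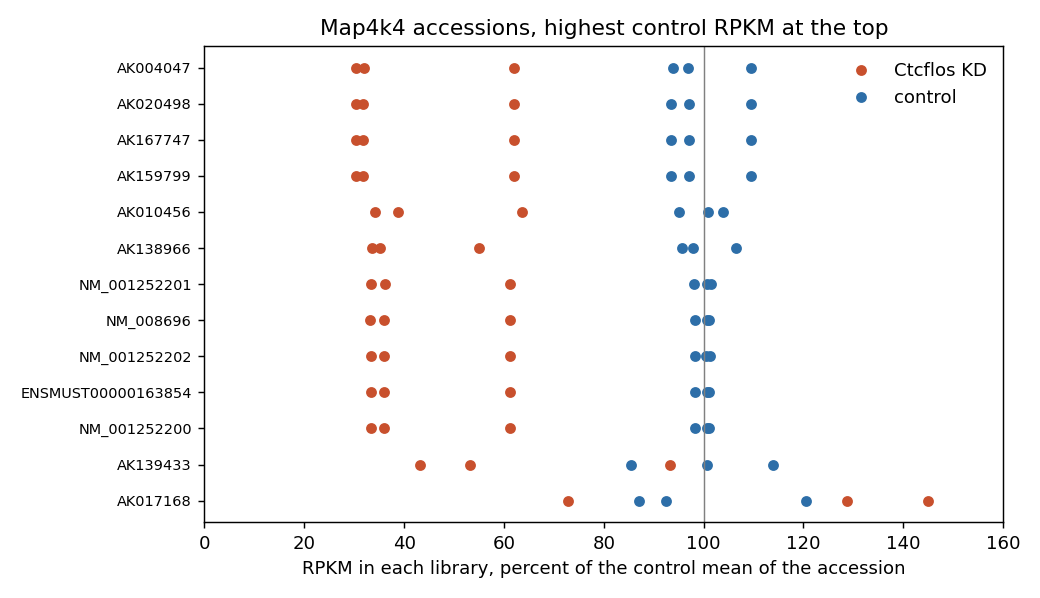
RPKM of the 13 *Map4k4* accessions in each library as a percentage of the control mean of the accession. Each point is a library. In 11 accessions the KD points lie below all control points, and in AK139433 and AK017168 at the bottom, which have the lowest RPKM, KD and control points overlap.

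*Map4k3*, the second MAP4 kinase, is known for a role in amino acid signalling to mTORC1 and for activating JNK. It lies at chr17:80580512-80728485 on the minus strand, 148 kb, and 1 of its exons lies within an annotated gene on the opposite strand, *Gm9959*. It was at 0.834, 0.711 and 1.30 RPKM in KD and at 2.42, 1.89 and 2.03 RPKM in controls. The groups did not overlap, with replicate 3 again the highest KD library. The level fell to 44.8% of the control mean (log2 fold change -0.68, SE 0.131, limma adjusted p = 0.0127). Its KD mean is under 1 RPKM, so that it passed the filter through the controls, and without a filter the adjusted p from limma was 0.0423. Without control replicate 1 or 3 it was 0.0642 and 0.0576. The 4 accessions above the filter, which include the curated mRNA NM_001081357, kept 42.9 to 43.6% and showed no change of usage (gene-level adjusted p = 1, limma). AK079249 and ENSMUST00000112389 held the highest shares, 39.3 and 16.2% in KD against 40.6 and 16.9% in controls. The largest shift of share belonged to the clone AK049745, from 2.14 to 4.69%, whose RPKM was 0.458, 0.230 and 0.329 in KD and 0.425, 0.304 and 0.358 in controls.

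*Map3k5* encodes ASK1, the MAP3 kinase that responds to oxidative stress. Its span, chr10:19934472-20142753 on the plus strand, is with 208.3 kb the longest of the 9. It was the weakest member, with 0.692, 0.473 and 0.804 RPKM in KD and 1.20, 0.984 and 1.17 RPKM in controls. No KD library reached a control, and 58.7% of the control mean was left. In the fit without a filter, in which 4.71% of 38335 genes were called, the log2 fold change was -0.36 (SE 0.109, limma adjusted p = 0.106). With RefSeq mRNAs alone, at 0.729 RPKM in KD and 1.30 RPKM in controls, so that the gene passed the filter through the controls, the adjusted p was 0.0237, and with the sum over accessions it was 0.0274 (limma). Of its 9 accessions, 7 were lower without overlap. AK033726 and AK078668 held the highest shares, 23.9 and 15.0% in KD and 21.6 and 14.4% in controls, and ENSMUST00000156369 had the largest shift of share, from 11.1 to 8.91%. For the curated transcript ENSMUST00000095806 306, 212 and 300 reads were recovered in KD and 571, 498 and 467 in controls.

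*Map2k1* encodes MEK1, the kinase that activates ERK1 and ERK2. It lies at chr9:64185770-64253631 on the minus strand and was the strongest member. Its level was 27.8, 31.3 and 19.8 RPKM in KD and 28.8, 19.3 and 28.3 RPKM in controls. One library of each group, KD replicate 3 and control replicate 2, stood below the other 4, so that the spread within groups exceeded the difference between them (log2 fold change 0.04, SE 0.210, limma adjusted p = 0.906). The same pair of libraries had the highest *Lyz2*, a macrophage lysozyme, with 12.8 and 24.5 RPKM against 1.24 to 7.41 RPKM in the others, and the highest *Acta2*, smooth muscle actin, with 48.2 and 83.6 against 17.2 to 38.8 RPKM. The part of this in the *Map2k1* values was not tested. AK165664 and NM_008927 held 28.3 and 25.3% of the *Map2k1* RPKM in KD and 28.5 and 25.6% in controls, AK165894 has the same values as NM_008927, and the largest shift was that of ENSMUST00000152535 from 10.5 to 11.4%.

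*Mapk3* encodes ERK1, an ERK kinase of the growth factor branch. It is the shortest of the 9 genes, with 6.2 kb at chr7:126759601-126765819 on the plus strand. It was at 8.47, 6.99 and 5.37 RPKM in KD and 5.92, 5.38 and 5.18 RPKM in controls. KD replicates 1 and 2 were above every control and replicate 3 was within the controls. The log2 fold change was 0.27 (SE 0.150, limma adjusted p = 0.210), and without KD replicate 3 it was 0.42 with an adjusted p of 0.0201 (limma). Its 2 accessions, NM_011952 and AK155287, were at 126 and 127% of the control mean, and their shares shifted by 0.129 percentage points.

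*Mapk8* and *Mapk9* encode the JNK kinases JNK1 and JNK2, which phosphorylate Jun. *Mapk8* lies at chr14:33377898-33447158 on the minus strand and *Mapk9* at chr11:49846751-49886421 on the plus strand. Each gene has a pair of mutually exclusive coding exons of 72 bases in the kinase domain, and no annotated coding transcript holds both. They are shown 5′ to 3′ because the annotated isoforms of both genes differ in them. Capitals mark the bases at which the exons of a pair differ, 25 of 72 in *Mapk9* and 27 of 72 in *Mapk8*. The *Mapk9* exons lie at chr11:49873836-49873907 and chr11:49874264-49874335, and the *Mapk8* exons at chr14:33390673-33390744 and chr14:33390242-33390313 (GRCm38).
Mapk9 upstream exon: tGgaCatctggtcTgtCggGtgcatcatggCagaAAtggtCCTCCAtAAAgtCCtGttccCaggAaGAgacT
Mapk9 downstream exon: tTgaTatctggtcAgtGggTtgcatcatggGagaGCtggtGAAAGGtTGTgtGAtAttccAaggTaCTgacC
Mapk8 upstream exon: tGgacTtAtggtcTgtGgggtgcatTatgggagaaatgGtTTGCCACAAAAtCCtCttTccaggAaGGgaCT
Mapk8 downstream exon: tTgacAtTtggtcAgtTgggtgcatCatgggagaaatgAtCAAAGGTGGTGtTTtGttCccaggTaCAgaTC

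*Mapk8* was at 1.11, 1.00 and 1.63 RPKM in KD and 1.99, 1.95 and 1.98 RPKM in controls. The controls were almost equal, and all KD libraries were below them, replicate 3 the least. The level was 63.2% of the control mean (log2 fold change -0.41, SE 0.117, limma adjusted p = 0.0384). This call was lost without a filter (adjusted p = 0.0949, limma) and without any 1 library other than KD replicate 3 (0.0937 to 0.127). All 12 accessions above the filter kept 54.9 to 72.3% of the control mean, and 14 of 17 accessions were lower without overlap. An isoform with the upstream exon, ENSMUST00000111944, kept 62.2% and one with the downstream exon, ENSMUST00000111943, 64.9%, and the gene was not called for usage (gene-level adjusted p = 1, limma). These isoforms also differ in their start and length (1528 and 1310 bases). Their overlapping parts share reads, so that the values do not give the use of either exon. AK139498 held the highest share, 10.5% in KD and 11.1% in controls, AK047936 came next in controls with 9.11%, and 8.30% in KD, and the largest shift was that of ENSMUST00000127143, a transcript with a retained intron, from 7.43 to 8.57%.

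*Mapk9* did not follow *Mapk8*. Its level was 4.72, 4.71 and 4.43 RPKM in KD and 5.17, 4.46 and 5.25 RPKM in controls. Control replicate 2 was as low as the KD libraries (log2 fold change -0.08, SE 0.0973, limma adjusted p = 0.551). Its 14 accessions all passed the filter and kept 89.9 to 106% of the control mean. The 4 RefSeq mRNAs, which reach the full 3′ end, kept 90.1%. ENSMUST00000109178 and ENSMUST00000043321, which end early in the last exon, were at 105% each. The shares of 7 accessions did not overlap between groups, yet the largest shift was 0.544 percentage points and the gene-level adjusted p for usage was 1 (limma). AK031974 and AK031959 held the highest shares, 9.97 and 9.93% in KD and 10.3 and 10.2% in controls.

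ENSMUST00000109178 and ENSMUST00000043321 differ by the exon pair printed above. They have the same start and end but lengths of 1302 and 1297 bases, so that they also differ by a few bases elsewhere within the transcript. In each library the former had 2 to 6 more reads than the latter, among 207 to 327 reads on each. The excess was 6, 2 and 3 reads in KD and 3, 4 and 5 reads in controls, which overlap. Reads in the shared exons enter both accessions. These numbers therefore give the net of the exon pair and of the other differing bases together, and not the use of either exon.

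*Mapk14* encodes p38α, the p38 kinase that acts on *Ucp1* regulators, and lies at chr17:28691329-28748406 on the plus strand. It was at 8.84, 8.47 and 7.75 RPKM in KD and 9.43, 8.64 and 10.3 RPKM in controls. KD replicate 1 was above the lowest control (log2 fold change -0.16, SE 0.108, limma adjusted p = 0.308). AK151348 and NM_001168513 held 14.4% each in both groups, and the largest shift of share was that of ENSMUST00000151613, from 4.02 to 4.14%. *Mapkapk2* encodes MK2, a kinase activated by p38 that stabilises mRNAs of inflammatory genes, and lies at chr1:131053700-131097826 on the minus strand. Its level was 14.1, 11.5 and 11.8 RPKM in KD and 13.4, 11.7 and 13.3 RPKM in controls, with full overlap (log2 fold change -0.04, SE 0.120, limma adjusted p = 0.848). AK171912 held 49.1% in KD and 50.0% in controls, the largest shift of its 3 accessions, and NM_008551 33.0 and 32.8%. No other member than *Map4k4* was called for usage.

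Compared per length on curated RefSeq mRNAs alone, the order of the control levels was *Map2k1* (39.1 RPKM), *Map4k4* (18.0), *Mapkapk2* (12.6), *Mapk14* (11.3), *Mapk9* (6.72), *Mapk3* (5.35), *Map4k3* (2.85), *Mapk8* (2.77) and *Map3k5* (1.30). The control ranges of *Mapkapk2* and *Mapk14* overlapped, as did those of *Map4k3* and *Mapk8*. Within each control library, however, *Mapkapk2* was above the average of the *Mapk14* mRNAs, whereas the order of *Map4k3* and *Mapk8* changed between control libraries. In *Ctcflos* KD, *Map4k4* came to a group mean of 7.85 RPKM, below *Mapkapk2* at 12.3 RPKM and *Mapk14*. The order against *Mapk14* did not hold in KD replicate 3. There the *Map4k4* RefSeq mRNAs were at 10.8 to 11.4 RPKM and those of *Mapk14* at 8.96 to 10.1 RPKM.

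The members differ in gene span. The 3 members above 100 kb, *Map4k4*, *Map4k3* and *Map3k5*, were all without overlap lower, and so was *Mapk8* with 69.3 kb, whereas *Mapk3*, the shortest, had the highest fold change. Over the whole table, 9406 of 11701 genes have a span, and the median log2 fold change was 0.08 for spans below 10 kb, -0.04 for spans of 30 to 100 kb, -0.28 for 100 to 200 kb and -0.57 beyond 200 kb. At 100 kb and above, 45.1% of 920 genes were called lower, against 10.2% of 8486 shorter genes. *Map4k4* and *Map4k3* were below the median of their span range. *Map3k5*, at -0.36 in the fit without a filter, was above that of its range. The medians are of genes that passed the filter, and the scale understates the change of a gene as low as *Map3k5*. With the sum over accessions its log2 fold change was -0.70, for which no medians were computed, so that its place is not settled. Whether span had a part in the members' changes was not tested.

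**Figure D3:**
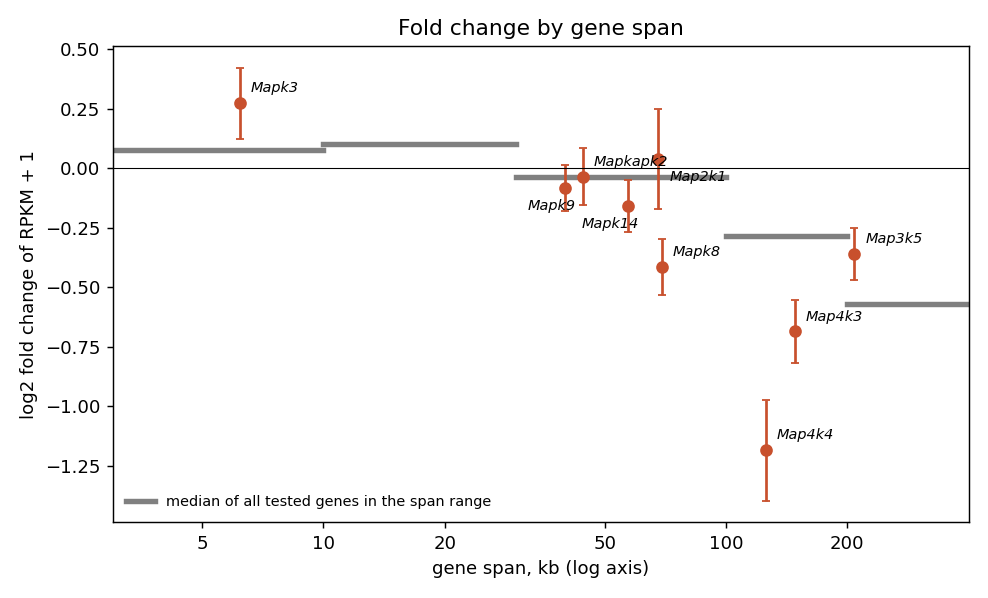
Log2 fold change of the 9 genes (points, with standard error) against gene span in kb (log axis), with the median of all tested genes in each span range as grey bars. *Map4k4* at 125.4 kb lies furthest below 0, *Mapk3* at 6.2 kb lies above 0, and the medians go from 0.08 below 10 kb to -0.57 beyond 200 kb.

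The RefSeq promoter table (GRCm38.p6) has 9 entries for 7 of the members and none for *Map4k4* and *Mapk3*. The 250 bases before the start were searched on both strands for the GC box GGGCGG, the AP-1 site TGANTCA, the cAMP response element TGACGTCA and the TATA box TATAAA, with matches that overlap each other counted each. A GC box was found in 6 of the 9 entries, and in 32.7% of all 32851 promoters, and the other 3 motifs in 0 entries, where 6.75, 1.55 and 12.4% of all promoters hold them. The 6 windows with a GC box hold 63.6 to 82.4% G and C bases, and the median of all promoters is 52.4%. The part of this base content in the matches was not tested. The windows of the JNK genes are printed because *Mapk8* fell and *Mapk9* was not called, with GC boxes in capitals. That of *Mapk8*, chr14:33447159-33447408 on the minus strand, holds 7 with 79.2% G and C bases. That of *Mapk9*, chr11:49846501-49846750 on the plus strand, holds 1 with 63.6%. *Mapk8* has a second entry, chr14:33411025-33411274, within the gene, which holds 0 GC boxes and is not printed, and the bases right after it are part of 6 Gencode transcripts of *Mapk8*, against 2 for the printed entry.
Mapk8 promoter: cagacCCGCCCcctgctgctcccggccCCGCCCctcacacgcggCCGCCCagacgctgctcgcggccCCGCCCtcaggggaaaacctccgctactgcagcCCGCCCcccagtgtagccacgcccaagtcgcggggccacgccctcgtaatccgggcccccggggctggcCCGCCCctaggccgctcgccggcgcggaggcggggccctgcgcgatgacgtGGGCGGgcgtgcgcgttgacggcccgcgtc
Mapk9 promoter: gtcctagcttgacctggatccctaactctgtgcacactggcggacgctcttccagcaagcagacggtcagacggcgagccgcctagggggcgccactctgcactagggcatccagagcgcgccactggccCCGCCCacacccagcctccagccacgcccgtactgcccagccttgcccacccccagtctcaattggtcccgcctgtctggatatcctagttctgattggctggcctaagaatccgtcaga
These are matches of letters and say nothing on binding.

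The other genes of the pathway were taken from 10 lists of 114 genes, of which 113 are in the table and 79 passed the filter. In *Ctcflos* KD 8 of them were higher and 14 lower (adjusted p under 0.05, limma), beside 11.5 and 12.4% of all genes tested, with a median log2 fold change of -0.04 beside 0.03 over all genes tested. These shares are the background of each list below, and the highest gene of a list is the one with the highest mean over all 6 libraries. KD replicate 3 was the KD library nearest to the controls in 14 of the 14 and in 8 of the 8, as it was in all 4 members without overlap, and in 75.9% of all genes called lower and 81.4% of those called higher. Leaving it out raised the list counts to 20 lower and 19 higher, and without any other library they were 1 to 8 lower and 0 to 1 higher, with 1 and 0 without control replicate 3, where *Egfr* was the 1.

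Upstream of ERK, 7 of 13 genes were called, 2 higher and 5 lower. *Egfr*, the receptor of epidermal growth factor, was at 7.14, 6.54 and 7.25 RPKM in KD and 15.3, 14.0 and 15.6 RPKM in controls. The groups were far apart, with 46.6% of the control mean left (limma adjusted p = 0.0026), a call that held in every alternative run. The Raf kinases *Araf* and *Braf*, the small GTPase *Rras2* and the exchange factor *Sos2* also fell, with log2 fold changes of -0.48, -0.51, -0.55 and -0.44. *Nras*, a Ras GTPase, rose by 0.65 on the log2 scale and *Grb2*, the adaptor that couples receptors to Sos, by 0.56. *Nras* was at 16.0, 16.6 and 12.3 RPKM in KD against 8.86, 9.21 and 9.30 RPKM in controls.

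Of the other MAP2 kinases 3 of 5 fell, and 0 rose. *Map2k4*, which activates JNK, was at 2.20, 2.24 and 3.59 RPKM in KD and 5.56, 5.42 and 5.95 RPKM in controls (log2 fold change -0.87, SE 0.148, limma adjusted p = 0.00915, and 0.0538 without control replicate 3). *Map2k3*, which activates p38, fell by 0.51 and *Map2k5*, which activates ERK5, by 0.41 on the log2 scale, while *Map2k2*, encoding MEK2 and the highest of the list, had a log2 fold change of -0.04. Of the MAP3 kinases 0 of 13 were called by limma, and *Taok1*, the highest, had a log2 fold change of -0.06. At an unadjusted p under 0.05, 2 of the 13, *Taok2* and *Zak*, were lower, beside 2212 of all 11701 genes tested. *Map4k5* was the only other MAP4 kinase that passed the filter, and it fell by 0.40 on the log2 scale. Among the other MAP kinases *Mapk7*, encoding ERK5, rose by 0.55 and *Nlk* fell by 0.46, and *Mapk6*, the highest, was not called (log2 fold change -0.11).

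Among scaffolds and adaptors 5 of 14 were called. *Spag9*, the JNK scaffold JIP4, fell by 0.64 and *Tab3* by 0.41, whereas *Tab2*, *Traf2* and *Mapk1ip1l* rose by 0.68, 0.56 and 0.45 on the log2 scale. *Tab2* and *Tab3* are both adaptors of the MAP3 kinase TAK1, and they moved in opposite directions. *Txn1*, thioredoxin, which binds ASK1 and was the highest of the list, was not called (log2 fold change 0.40, adjusted p = 0.206, limma). Of the 3 downstream kinases and the 9 dual-specificity phosphatases tested, 0 were called by limma. At an unadjusted p under 0.05 there were 1 of the former, *Rps6ka3* (log2 fold change -0.46), and 2 of the latter, *Dusp16* (0.34) and *Dusp7* (0.42). Of all 11701 genes tested, 2212 were lower and 2344 higher at that p. *Rps6ka3*, *Dusp16* and *Dusp7*, like *Taok2* and *Zak*, are named after their values were seen. The highest of each list, *Mknk2* and *Dusp4*, had log2 fold changes of -0.23 and 0.22 and were not called. The ERK inhibitor *Spry3* rose by 0.40 on the log2 scale, and *Spry4*, the highest of its list, was not called (log2 fold change -0.09).

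Among transcription factor targets 3 of 12 were called. *Jun*, the substrate that names JNK, was at 22.0, 18.7 and 8.55 RPKM in KD and 5.77, 3.71 and 6.06 RPKM in controls. All KD libraries exceeded the controls (log2 fold change 1.42, SE 0.317, limma adjusted p = 0.0189). This call was lost without a filter (adjusted p = 0.0599, limma) and without any 1 library other than KD replicate 3 (0.0559 to 0.0672). *Mapk8* and *Map2k4* went the other way. *Elk1*, a substrate of ERK, fell by 0.77 and *Mef2a*, a substrate of p38, by 0.40 on the log2 scale, and *Ddit3*, the highest of the list, had a log2 fold change of 0.00. Of the called list genes, *Braf*, *Map2k5*, *Nlk*, *Sos2* and *Tab3* had a KD mean and *Mapk7* a control mean under 1 RPKM, so that these 6 passed the filter through the group in which they are higher. In the fit without a filter, *Sos2*, *Tab3*, *Nlk* and *Mapk7* were not called (adjusted p = 0.0669, 0.0788, 0.0829 and 0.0892, limma).

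**Figure D4:**
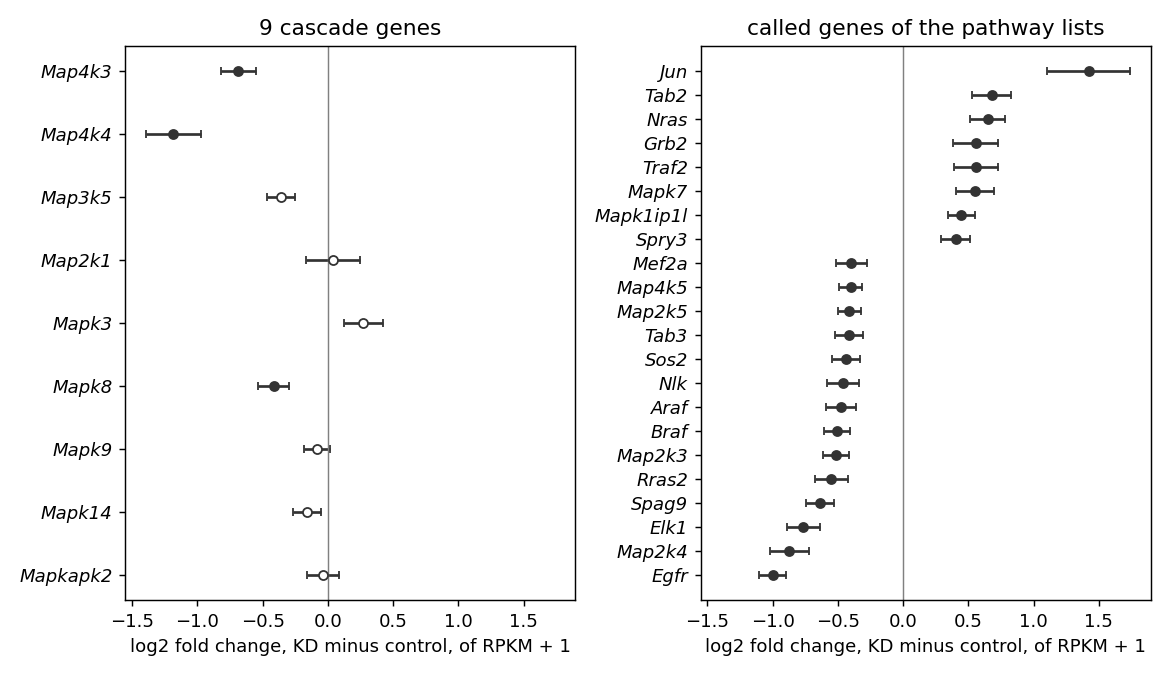
Log2 fold changes of RPKM + 1, *Ctcflos* KD minus control, with standard errors, for the 9 cascade genes (left; filled points have an adjusted p under 0.05, *Map3k5* is from the fit without a filter) and for the 22 called genes of the pathway lists (right). *Map4k4* at -1.18 is the lowest of the members, and *Jun* at 1.42 and *Egfr*, at 46.6% of its control mean, are the ends of the right panel.

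The genes whose log2 values over the 6 libraries were most like those of *Map4k4* were the clone symbol AK144697, *Ryk* and *Commd7*, with a Pearson r of 0.999 each. *Ryk*, a receptor-like kinase of Wnt signalling, was at 3.74, 3.87 and 6.60 RPKM in KD and 10.9, 10.4 and 10.2 RPKM in controls, with the same order of KD libraries. For *Map4k3* they were *Osbpl11*, *Tbck* and *Zmym4* (r = 1.00, 0.999 and 0.999), and for *Mapk3* they were *Rpp21*, *Zfp58* and *Rybp* (r = 0.989, 0.987 and 0.986). All these values share the 6 libraries and the difference between the groups, and are given as a description.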

How the data were processed

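Primary brite adipocytes with *Ctcflos* KD (n = 3) or nontargeting control (n = 3) were sequenced in 150 bp paired-end reads from stranded total RNA libraries. The authors deposited a single table of RPKM values per transcript accession. For their splice analysis the study states STAR alignment to GRCm38 and Gencode vM21, and how this table was made is not given in the sources used here. Of 168326 lines, 305 exact repeats were removed. Replicates were not pooled by the authors, and overlapping accessions share reads. Whether counting used the strand is not stated.

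Gene values were means over accessions. log2(RPKM + 1) of 11701 genes with a mean of at least 1 was tested with limma-trend, and log2(RPKM + 0.1) of accessions with limma diffSplice and Simes p-values. P-values were adjusted over all genes or accessions tested. Exact permutation tests of 3 against 3 cannot go below 0.1 and were not used for calls. The depth came from low RPKM values times transcript length, of which at least 95.2% were within 0.05 of a whole read. Both tests were also run on simulated data with independent noise. Such data lack the reads that overlapping accessions share, so that this run cannot vouch for the usage test on the real accessions. Alternatives were another pseudocount, no filter, scaling by the median of ratios, a replicate block, RefSeq mRNAs alone, sums over accessions, another gene-level test, a minimum share of 5% and leaving out each library. Usage relative to the gene mean and, for genes under the filter, the fits that leave out a library or use the block were chosen after seeing the data.

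Members and lists were chosen with earlier results of these data known. Named are all members, *Ctcflos*, list genes that were called or highest in their list, the accessions of highest share, with a called usage or with the largest shift, and the 3 genes most like *Map4k4*, *Map4k3* and *Mapk3*. Marker genes and the *Map4k4* RefSeq mRNAs are named beside them as context. *Hras* and *Adgre1* stand in the table as *Hras1* and *Emr1*. Of the other marker lists, 1 of 4 progenitor markers was lower, 1 of 2 macrophage markers higher, 1 of 1 mesothelial marker lower, 0 of 1 smooth muscle marker was called, and 0 endothelial and epithelial markers passed the filter. Of 7 adipocyte markers 1 was lower, and of 5 thermogenic markers 3 were lower. Gene spans and exons are from Gencode vM21, and 471 spans were found through an older symbol. Tools were limma 3.58.1 and data.table (version 1.17.8) in R 4.3.3, and numpy 2.4.6, pandas 2.3.3 and matplotlib 3.10.9 in Python 3.11.15.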

Additional observations from a re-analysis of the deposited data

How the results depend on the processing

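*Map4k4* and *Map4k3* were called lower in every alternative that used all 6 libraries, and *Mapk8* was not. The number of members called lower was 3, and it ranged from 0 to 3 when each library was left out in turn. It was 0 without control replicate 1 or 3. The number called higher was 0, and it ranged from 0 to 1, the 1 being *Mapk3* without KD replicate 3. List genes called lower ranged from 1 to 20 around 14, and those called higher from 0 to 19 around 8. List genes called higher came to 4 without a filter and to 5 in the blocked fit. The 1 member called for usage, *Map4k4*, was 0 after scaling by the median of ratios, with the replicate block, the F test, accessions of at least 5% of the gene, RefSeq mRNAs alone and usage relative to the gene mean, and ranged from 0 to 1 without each library. Over all genes, 2803 were called, against 1807 without a filter, 1671 with the block and 369 to 4810 without 1 library, and for usage 77, against 489 without a filter, 23 with the minimum share, 3 with RefSeq mRNAs alone, 0 relative to the gene mean and 36 to 208 without 1 library. The causes were not tested.

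Directions reversed in genes that were not called. Without 1 library the log2 fold change of *Map2k1* ranged from -0.14 to 0.22, of *Mapkapk2* from -0.12 to 0.0139, of *Ddit3* from -0.11 to 0.14, of *Taok1* from -0.16 to 0.0705 and of *Spry4* from -0.16 to 0.0038, and scaling by the median of ratios gave *Ddit3* -0.0265.

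The labels number the libraries of both groups 1 to 3. The departures from the group mean correlated between libraries of the same number at 0.287, -0.288 and -0.418, and 1 of the 3 KD libraries correlated best with the control of its own number. Departures from a mean of 3 libraries are tied to each other, so that these values cannot decide whether the numbers pair the libraries. The highest values were 0.504, of KD replicate 2 with control replicate 3, and 0.419, of KD replicate 3 with control replicate 2. In the fit with the replicate block 2 members were called lower, with *Mapk8* lost (adjusted p = 0.0654, limma), and the *Ctcflos* adjusted p was 0.113 (limma) in place of 0.0254. *Ctcflos* and the weakest members were at low RPKM, which limits their precision. Reads behind *Ctcflos* were not recovered. For *Map3k5*, the weakest member, the curated transcript had 212 to 571 reads per library.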
